A study of Mus musculus with 2116 samples.

Results

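The cells described here are regulatory T cells of the mouse spleen that held mRNA of genes known to be switched on through the T cell receptor (TCR). They were chosen from one inDrops library, a droplet method in which each captured mRNA molecule is tagged with a unique molecular identifier (UMI), so that a UMI count is a count of molecules. Of the 816 cells of the Treg library, 78 had fewer than 1000 UMIs and a further 19 held UMIs of Cd79a, Lyz1 or C1qa, which mark B cells and macrophages. Of the 719 cells left, 105 held at least 2 UMIs summed over Nr4a1, Nr4a3, Egr1, Egr2, Egr3, Cd69, Myc, Nfkbid, Irf4 and Cd83, and are called the rule cells. Another 81 held 1 such UMI, and 533 held none and are called the zero cells. The series holds 2116 cells in all.

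Both libraries came from male mice of 8 months of the strain B6 Foxp3-Ires-Gfp, in which green fluorescent protein reports Foxp3 expression, and no treatment is named in the labels. Live cells positive for TCR beta and CD4 were sorted, and the sort text gives GFP+ as the gate of either population. The second library, of conventional T cells (Tconv), gave 1300 cells. Each population is 1 library and the number of animals is not named, so no test between cells was made. All intervals below are exact 95% intervals of counting error and do not cover the spread between animals.

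As background, a TCR that binds its ligand starts calcium, MAP kinase and NF-kB signalling. Within a short time this induces transcription factors of the NR4A and EGR families, and then surface proteins such as CD69 and CD83, the growth regulator MYC and the factor IRF4. Regulatory T cells carry receptors that often recognise self ligands, and Nr4a1 and Cd69 are commonly used as signs of recent TCR signalling in them. The 10 genes therefore span several steps of one response, and immediate early genes can also be induced by other stimuli, including tissue dissociation.

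Promoter sequences are shown for 3 of the genes that chose the cells and for Nfkbia, an NF-kB inhibitor gene outside the rule, because they carry matches to elements through which such stimuli act. Each is the 250 bases before a RefSeq start site on GRCm38.p6, 5′ to 3′ on the strand of the gene, with matches in capitals. RefSeq windows were at hand for 5 of the 10 rule genes, and the windows were chosen after the matches were seen. The windows of the rule genes Nr4a3 and Irf4, and those of the other Nfkbid starts, held no match to any motif searched. Outside the rule, the windows of Junb, Dusp2 and Tnfrsf4 held none, and those of Zfp36 and Bcl2a1b held 1 each. The other Egr2 windows also held matches.
Nr4a1 promoter: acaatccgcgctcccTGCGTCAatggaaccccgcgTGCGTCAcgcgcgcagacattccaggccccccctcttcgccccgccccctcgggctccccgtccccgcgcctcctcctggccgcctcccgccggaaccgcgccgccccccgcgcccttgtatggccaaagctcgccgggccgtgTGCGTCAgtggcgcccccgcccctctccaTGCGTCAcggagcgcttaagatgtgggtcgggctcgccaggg
Egr2 promoter: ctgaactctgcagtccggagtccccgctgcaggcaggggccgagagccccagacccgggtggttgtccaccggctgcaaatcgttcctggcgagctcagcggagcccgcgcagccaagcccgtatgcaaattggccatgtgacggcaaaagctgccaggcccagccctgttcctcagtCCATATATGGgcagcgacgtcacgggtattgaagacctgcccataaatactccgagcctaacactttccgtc
Nfkbid promoter: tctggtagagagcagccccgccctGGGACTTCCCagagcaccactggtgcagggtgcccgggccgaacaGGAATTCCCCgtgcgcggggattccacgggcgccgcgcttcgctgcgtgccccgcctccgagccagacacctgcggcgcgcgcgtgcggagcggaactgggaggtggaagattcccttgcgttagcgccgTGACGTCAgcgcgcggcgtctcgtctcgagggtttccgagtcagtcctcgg
Nfkbia promoter: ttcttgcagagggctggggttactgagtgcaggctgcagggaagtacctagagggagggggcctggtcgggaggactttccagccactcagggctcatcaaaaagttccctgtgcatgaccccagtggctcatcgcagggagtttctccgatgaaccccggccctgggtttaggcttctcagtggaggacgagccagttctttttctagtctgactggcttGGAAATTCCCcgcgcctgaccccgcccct
The Nr4a1 window lies at chr15:101266596-101266845 on the plus strand, in an intron of a longer GENCODE transcript. It holds 4 copies of the CRE-like element TGACGCA, all read on the opposite strand. The element was searched on both strands, and 1.75% of the 32851 RefSeq windows of the same length hold it. The Egr2 window, at chr10:67537619-67537868 on the plus strand and also intronic in longer transcripts, holds 1 CArG box, the element bound by serum response factor. A CArG box was present in 1.47% of all windows. The Nfkbid window, at chr7:30422156-30422405 on the plus strand within an intron of a longer transcript, holds 1 CRE (TGACGTCA, in 1.55% of all windows) and 2 kB sites. The Nfkbia window, at chr12:55492648-55492897 on the minus strand and outside any annotated transcript, holds 1 kB site, which 7.25% of all windows hold. An AP-1 element (TGACTCA, in 4.46% of all windows) and an EGR element (GCGTGGGCG, in 0.536%) were searched too, and their letters are not in the 4 windows. CRE and CArG elements read the same on either strand, the motifs searched do not contain one another, and a match is a description of letters only.

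The cells differed in depth. The rule cells held a median of 2122 UMIs (quartiles 1698 and 2559, range 1060 to 7330) and the zero cells 1692 (quartiles 1403 and 2085, range 1013 to 8221). The median number of genes was 820 and 708, and after each cell was thinned to 1000 UMIs it was 529 and 519. Mapped reads per UMI (medians 31.6 and 31.3) and the share of ribosomal protein mRNA (25.6% and 26.1%) were alike. Foxp3, the defining factor of regulatory T cells, had a UMI in 31.4% (22.7 to 41.2) of thinned rule cells and 28.1% (24.4 to 32.2) of thinned zero cells, against 0.340% of the Tconv zero cells. Cells with at least 3 UMIs of a marker list of another cell type made up 16.2% of rule cells and 14.1% of zero cells. The B cell list had 27 UMIs in rule cells and 89 in zero cells, a log2 ratio of 0.33 (-0.35 to 0.96), with Cd79a at 0 by the filter, H2-Aa at 0 and 15 UMIs and Cd79b at 1 and 9. Members of that list also lay the other way: the MHC class II chaperone Cd74 had 15 and 20 UMIs, at 1.63 (0.56 to 2.67), and Cd22 had 10 and 24, at 0.79 (-0.44 to 1.90). The intervals of the plasma cell, myeloid, dendritic, and CD8 or NK lists also included 0 (the myeloid list was at 0.73, 0.011 to 1.40, without its member Ctss), and 8 UMIs of the platelet gene Ppbp came from 1 rule cell. The libraries shared 12 cell barcodes, 1 of them in a rule cell.

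The values of the 10 rule genes chose the cells and are given as a description. Together the rule cells held 717 UMIs of them. Myc, a transcription factor that drives growth, gave 266 UMIs in 38 rule cells (gene at chr15:61985391-61990374, plus strand). Cd69, a lectin that retains lymphocytes in tissue, gave 113 UMIs in 40 cells (chr6:129267325-129275436, minus strand). The orphan nuclear receptor Nr4a1 gave 87 UMIs in 18 cells. The zinc finger factors Egr1 and Egr2 gave 74 UMIs in 27 cells and 45 in 11. Cd83, a surface protein that stabilises MHC class II and CD86, gave 57 UMIs in 23 cells, and the atypical NF-kB inhibitor Nfkbid gave 45 in 19. Irf4, a factor needed for effector differentiation, gave 30 UMIs in 9 cells. No UMI of Nr4a3 or Egr3 was seen in the 719 cells, which, at the floor of 3 counts used for a count of 0, allows a share of up to 0.417% of cells with a UMI.

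After thinning, Cd69 and Myc were each detected in 5.70% (4.12 to 7.66) of the 719 cells. Egr1 followed at 3.48% (2.26 to 5.09), Cd83 at 3.06%, Nr4a1 and Nfkbid at 2.50% each, Irf4 at 1.39% and Egr2 at 1.25% (0.574 to 2.36). Neighbours in that order had overlapping intervals. A background share from cells that lack these genes was not measured. Some of the genes occurred in the same cells, and of the 21 pairs counted, with Nr4a genes pooled and Egr genes pooled, 4 are given here, chosen after their values were seen. Of 18 thinned cells with Nr4a1, 5 also held an Egr UMI (27.8%, 9.69 to 53.5), against 22 of 701 others (3.14%). Of 18 with Nfkbid, 6 held Cd69 and 6 held Myc (33.3% each, 13.3 to 59.0), against 4.99% of the others in both cases. Myc and the Egr genes did not show this: 2 of 27 cells with an Egr UMI held Myc (7.41%, 0.910 to 24.3), against 5.64% of the others.

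The rule UMIs were concentrated in few cells. The 10 cells with at least 11 rule UMIs held 292 of the 717 (40.7%), while 25 cells stood at exactly 2, the threshold. The richest cell held 74 rule UMIs of 8 genes among 2607 UMIs, with 29 of Myc, 11 each of Nr4a1 and Egr2, and 10 of Irf4. The next 2 held 53 and 45 rule UMIs of 6 genes each. The sixth cell held 17 UMIs, all of Myc. Of the 105 rule cells, 47 held at least 2 different rule genes (28 held 2, 13 held 3, 3 held 4, 2 held 6 and 1 held 8). The other 58 held UMIs of a single gene: Myc in 27, Cd69 in 15, Egr1 in 6, Cd83 in 5, Nr4a1 in 4 and Nfkbid in 1. UMIs of a gene fell together in cells throughout this library. Among 4275 genes with at most 0.2 UMIs per cell on average, 27.5% of detections held at least 2 UMIs, against 6.14% for independent UMIs, and for the rule genes it was 51.5%. The intervals below take UMIs as independent and are too narrow for that reason.

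**Figure D1:**
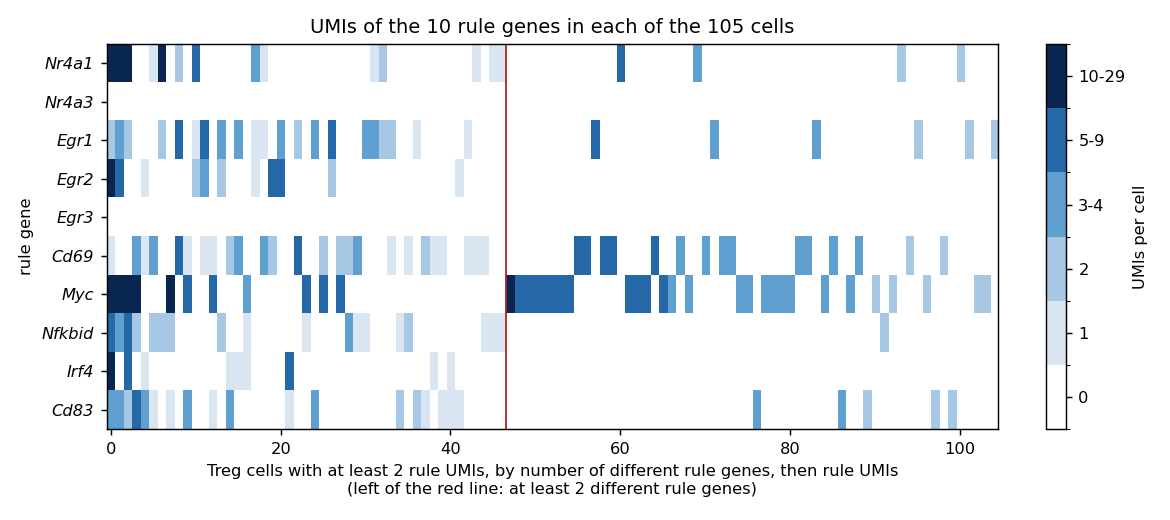
UMIs of the 10 rule genes (vertical axis) in each of the 105 rule cells (horizontal axis), shaded by UMIs per cell. The 47 cells left of the red line held at least 2 different rule genes and the 58 to its right a single one, in 27 of them Myc.

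For every other gene, UMIs were pooled over the rule cells (235442 UMIs) and over the zero cells (974073 UMIs) and compared as counts per 1000000 UMIs (CPM). A minimum of 30 UMIs over both sets left 5345 genes, of which 295 (5.52%) were higher in the rule cells by a factor of 2 or more and 595 (11.1%) lower by as much, and the median log2 ratio was -0.04. With 100 UMIs as the minimum these counts were 33 (1.67%) and 74 (3.74%) of 1978 genes. These shares are the background for the lists below, from which the rule genes were left out, and a list's members past 2-fold were picked out after their values were seen.

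The receptor itself and its proximal kinases and adaptors differed little: none of 23 measured genes of the list passed 2-fold and their median log2 ratio was 0.21. Without Lck, its member with most UMIs, the summed level of the list was at 0.20 (0.12 to 0.27). It was at 0.19 in rule cells with 1 rule gene and 0.20 in those with 2 or more. Cd3e, Cd3d and Cd3g were at 0.25, 0.21 and 0.17, and the kinase Lck at 0.13 (-0.05 to 0.31). The largest ratios in the list belonged to the adaptors Lcp2 (SLP-76), at 0.93 (0.43 to 1.41), and Sla, which promotes receptor turnover, at 0.79 (0.49 to 1.08). These rest on 53 UMIs of Lcp2 and 135 of Sla in the rule cells.

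Among immediate early genes outside the rule, 2 of 11 measured were at least 2-fold higher and none lower, and the list as a whole was at 0.31 (0.20 to 0.42). Junb, an AP-1 subunit (chr8:84974484-84978718, minus strand), had 101 UMIs in 44 rule cells and 130 in 80 zero cells. Its log2 ratio was 1.68 (1.29 to 2.07), and after thinning it was detected in 32.4% of rule cells and 9.01% of zero cells. Zfp36, whose protein destabilises mRNAs with AU-rich elements, was at 1.38 (0.99 to 1.76), and 1 rule cell held 21 of its 95 UMIs. It was at 922 CPM in cells with 2 rule UMIs and 442 in those with 3 to 4. Cells with at least 5 had 163 CPM, near the 155 of zero cells. The list members Jund, at 0.07 (-0.23 to 0.35), and Btg1, at -0.19 (-0.39 to 0.01), had intervals that included 0. The median of the 11 genes was 0.26, and without Btg1, its member with most UMIs, the list was at 0.56 (0.43 to 0.68).

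Other genes known to be TCR-induced were higher as a list, at 0.67 (0.57 to 0.77), or 0.54 (0.43 to 0.65) without Dusp2, its member with most UMIs. Dusp2, a nuclear phosphatase of ERK (chr2:127336159-127338376, plus strand), had 241 UMIs in 34 rule cells and 413 in 112 zero cells, a log2 ratio of 1.27 (1.04 to 1.50). The share of thinned cells with Dusp2 was 25.7% and 17.4%, so its ratio in UMIs was larger than that in cells. Of the 22 measured TCR-induced genes 8 were at least 2-fold higher and 1 lower, with a median of 0.63. The 8 were Dusp2, Spry1, Bcl2l1, Rgs1, Nab2, Tnfrsf4, Tagap and Batf. Nab2, a co-repressor of EGR proteins, was at 1.49 (0.61 to 2.33) and Batf, an AP-1 factor, at 1.18 (0.24 to 2.08). Slamf6, a receptor of the SLAM family, was the lower member, at -2.49 (-4.40 to -1.09) on 4 and 93 UMIs. The list of MAP kinase phosphatase and sprouty genes did not move as a group, and it holds Dusp11, whose product is an RNA phosphatase. Of 4 measured, Dusp2 and Spry1 were at least 2-fold higher, while Dusp11 was at -0.94 (-1.62 to -0.33) and Dusp10 at -0.76 (-2.47 to 0.60). Spry1 rests on few cells, with 15 UMIs in 4 rule cells and 15 in 4 zero cells. Dusp2 gave 241 of the 301 UMIs of that list in rule cells. The list was at 0.87 (0.67 to 1.07) with Dusp2 and at -0.12 (-0.54 to 0.29) without it. Of the UMIs left without Dusp2, 60 in rule cells and 269 in zero cells, Dusp11 gave 24 and 191.

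Genes of the NF-kB pathway were higher as well. Of 20 measured, 16 were above 0, 5 at least 2-fold higher and none 2-fold lower, with a median of 0.77 and a summed level at 0.70 (0.60 to 0.80). The inhibitor Nfkbia (chr12:55489410-55492647, minus strand) had 167 UMIs in rule cells and 384 in zero cells, a log2 ratio of 0.85 (0.58 to 1.11). The subunit Nfkb1 was at 0.84 (0.52 to 1.17), and Relb, of the alternative pathway, at 1.16 (0.10 to 2.15) on 14 and 26 UMIs. Tnfaip3 (A20), which switches the pathway off, was at 1.46 (0.69 to 2.22). The survival genes Bcl2a1b and Bcl2a1d were at 1.55 and 1.77, but they and Bcl2a1a, at 2.01, are near-identical copies whose reads can be split between them, so single values are uncertain. Subunit Rela, at 0.05, and the caspase inhibitor Cflar, at -0.06 (-0.31 to 0.19), were level.

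Costimulatory receptors of the TNF receptor family, several of which signal through NF-kB, were higher too: 7 of 8 measured were above 0, with a median of 0.64. Tnfrsf4 (OX40; chr4:156013843-156016612, plus strand) had 132 UMIs in 34 rule cells and 200 in 110 zero cells, a log2 ratio of 1.45 (1.12 to 1.77). Tnfrsf9 (4-1BB) and Tnfrsf18 (GITR) were both at 0.83, and the death receptor Fas was at 1.66 (0.996 to 2.32) on 36 and 47 UMIs. Cd27, at 0.14 (-0.19 to 0.46), did not share the difference. Lists overlap, and Tnfrsf4 belongs to 4 of them.

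The regulatory signature was higher as a list, at 0.44 (0.35 to 0.52), with 20 of 23 measured genes above 0 and 4 at least 2-fold higher (Swap70, Rgs1, Tnfrsf4 and Lrrc32). Lrrc32 encodes GARP, which docks latent TGF-beta on the cell surface, and was at 1.37 (0.76 to 1.96). Foxp3 itself was at 0.21 (-0.11 to 0.53), Il2ra (CD25) at 0.39 (0.09 to 0.68) and Izumo1r (folate receptor 4) at 0.23 (0.06 to 0.39). The signature shares 3 genes each with the TCR-induced, NF-kB and TNF receptor lists.

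Genes of resting T cells were lower. Of 23 measured, 22 were below 0 and 6 at least 2-fold lower, with a median of -0.45 and a summed level at -0.52 (-0.62 to -0.42). Klf3 was at -2.57 (-4.47 to -1.16) on 4 and 98 UMIs and Lef1, a WNT pathway factor of naive cells, at -2.10 (-4.02 to -0.68) on 4 and 71. The related factor Tcf7 was at -1.15 (-1.91 to -0.46). Klf2, which drives the exit receptor S1pr1, had 58 and 405 UMIs, a log2 ratio of -0.76 (-1.18 to -0.36), and Ccr7, the lymph node homing receptor, was at -0.76 (-1.31 to -0.26). Genes of effector or memory T cells were not higher in return: their summed level was at -0.05 (-0.15 to 0.05), and the intermediate filament gene Vim was at -1.03 (-1.55 to -0.54). In thinned cells, effector UMIs outnumbered resting UMIs in 33.3% (24.4 to 43.2) of rule cells and 25.5% (21.9 to 29.4) of zero cells.

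Growth and metabolism genes lay in both directions. Of 36 measured genes of growth and ribosome biogenesis, known in part as MYC targets, 3 were at least 2-fold higher and 4 lower. These counts lie near the shares over all genes, 5.52% and 11.1%. The list was at 0.17 (0.10 to 0.25). The nucleolar genes Gnl3, at 2.33 (1.48 to 3.19), Nop56 and Nop58 were the higher ones, and Srm, Cad, Bop1 and Nolc1 the lower. Among 15 heat shock genes Dnajb4 and Hsph1 were at least 2-fold higher and none lower, with Hspa5, the chaperone of the endoplasmic reticulum, at 0.82 (0.53 to 1.11) and a list level of 0.32 (0.22 to 0.42). Glycolysis genes were at 0.20 (0.05 to 0.35), with 1 of 11, Hk1, past 2-fold. Interferon-stimulated genes were at -0.19 (-0.29 to -0.10), with 4 of 25 at least 2-fold lower: Ifit1, Rtp4, Usp18 and Gbp2. That count lies near the 11.1% lower over all genes, and the glycolysis count near the 5.52% higher. Oxidative phosphorylation, proteasome and cytoskeleton genes had no member past 2-fold, and their summed levels lay at 0.08 (-0.017 without cells holding UMIs of other cell types), 0.02 and -0.01. Ribosomal protein genes were at -0.03 and T lineage genes at 0.14, also with no member past 2-fold. Proliferation genes were at 0.22 (0.10 to 0.33), or -0.11 when membership was called after thinning, with Mcm6 the 1 higher and Mcm3 the 1 lower of 16. Chemokine and homing receptors were at -0.08 (-0.20 to 0.03), with Ccr9 higher at 1.26, though -0.12 after thinning, and Ccr2 lower at -2.16 on 2 and 37 UMIs.

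**Figure D2:**
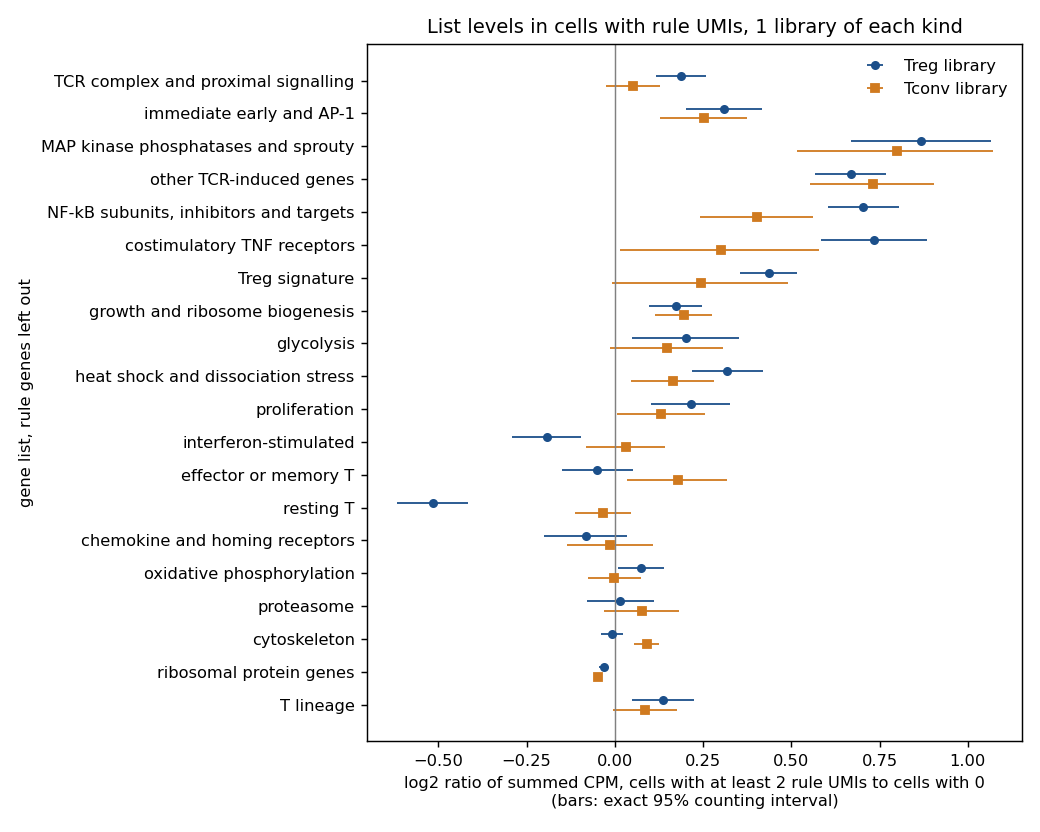
Log2 ratio of the summed CPM of each gene list (rows) between cells with at least 2 rule UMIs and cells with 0, in the Treg library (circles) and the Tconv library (squares); bars are exact 95% counting intervals. In Treg the NF-kB list lies at 0.70, the TNF receptor list at 0.73 and the resting T list at -0.52; the MAP kinase phosphatase list, at 0.87, is at -0.12 without Dusp2.

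By the rule for single genes (at least 30 UMIs and 10 cells, ordered by the interval bound nearest 0), the 15 highest were Ppp2r1b, Pcbp4, Rabggtb, Serpina3g, Ints9, Gnl3, Napg, Sar1b, Junb, Bcl2a1a, Elp2, Hif1a, Tnfrsf4, Bcl2a1d and Rgs1. Several rest on few cells. Ppp2r1b, a scaffold subunit of phosphatase 2A, had 35 UMIs in 8 rule cells and 25 in 11 zero cells, a log2 ratio of 2.53 (1.75 to 3.34). Rabggtb, a subunit of the enzyme that prenylates Rab proteins, had 43 UMIs in 15 rule cells and 38 in 18 zero cells, at 2.23 (1.56 to 2.90). Hif1a, the hypoxia factor that TCR signals also induce, had 52 UMIs in 20 cells and 67 in 34, at 1.68 (1.13 to 2.23). Junb was detected in the most rule cells of the 15, with 44.

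The 15 lowest were Ufd1l, Man2a1, Tbxa2r, Poc1b, Abtb2, Kdm7a, Rraga, Ifit1, Aven, Fam65b, Arid2, Fam134b, Rtp4, Azi2 and Ankib1. Ufd1l, a cofactor of protein degradation, had 0 UMIs in rule cells and 68 in 31 zero cells, and with 3 counts as the floor was at or below -2.45 on the log2 scale. Fam65b, an inhibitor of RhoA, had the most UMIs of the 15, 30 in 20 rule cells and 427 in 155 zero cells, at -1.78 (-2.37 to -1.25). Tbxa2r, the thromboxane receptor, had 1 and 76 UMIs, at -4.20 (-9.52 to -1.68). The demethylase gene Kdm7a had 5 and 132 UMIs, at -2.67 (-4.32 to -1.41).

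The rule cells were then divided by their number of rule UMIs and, in a split chosen after the values were seen, by their number of different rule genes. Cells just outside the threshold, with 1 rule UMI, and just inside it, with 2, had close values in 2 lists: the TCR-induced list was at 0.20 and 0.21 and the NF-kB list at 0.38 and 0.40, relative to zero cells. The immediate early list was at 0.07 (-0.06 to 0.20) in the former and 0.39 (0.17 to 0.59) in the latter. Markers of other cell types were higher in the 81 cells with 1 rule UMI. The B cell list was at 1.46 (0.89 to 2.005) there, the myeloid list at 1.19 (0.84 to 1.54), the dendritic list at 1.10 (0.82 to 1.38) and the erythroid or platelet list at 2.25 (0.71 to 3.74) on 8 UMIs, and their part in those values was not tested. The 49 cells with at least 5 rule UMIs had the TCR-induced list at 0.96 (0.83 to 1.08).

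The 47 cells with at least 2 different rule genes had the TCR-induced list at 1.20 (1.09 to 1.32), the NF-kB list at 1.16 (1.04 to 1.28) and the TNF receptors at 1.19 (1.01 to 1.37). Without the member with most UMIs in rule cells (Dusp2, Nfkbia and Tnfrsf4) these were at 0.997 (0.86 to 1.13), 1.11 (0.98 to 1.24) and 0.87 (0.66 to 1.08). In the 58 cells with a single rule gene the same 3 lists were at -0.09 (-0.25 to 0.07), 0.12 (-0.04 to 0.27) and 0.14 (-0.09 to 0.37), each with an interval that included 0. The immediate early list was at 0.47 (0.33 to 0.60) in the 47 cells and 0.15 (0.0044 to 0.30) in the 58, and single response genes were higher in the 58 as well. The heat shock and dissociation stress list moved with the division, at 0.51 (0.38 to 0.64) and 0.12 (-0.02 to 0.25), and its part was not tested. Median depth was 2214 and 1934.5 UMIs. The resting T list was lower in both, at -0.84 (-0.996 to -0.68) and -0.28 (-0.40 to -0.15), and the Treg signature was at 0.70 (0.59 to 0.80) and 0.15 (0.03 to 0.26). The B cell list was at 0.89 (0.10 to 1.62) in the 47 cells, where Cd74 gave 14 of the 19 UMIs of the list, and the myeloid list at 0.45 (-0.07 to 0.94), or 1.42 (0.62 to 2.16) without Ctss. The part of these markers was not tested.

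Several single genes followed the same division. After thinning, Dusp2 was detected in 42.6% (28.3 to 57.8) of the 47 cells, 12.1% (4.99 to 23.3) of the 58 and 17.4% (14.3 to 20.9) of zero cells. Tnfrsf4 was detected in 38.3% (24.5 to 53.6), 13.8% (6.15 to 25.4) and 13.9% (11.1 to 17.1), and in 0.906% of Tconv zero cells. Hspa5 was detected in 42.6%, 13.8% and 16.9%. For these 3 genes the interval of the cells with a single rule gene held the share of zero cells. Junb was an exception, at 40.4% (26.4 to 55.7), 25.9% (15.3 to 39.0) and 9.01% (6.71 to 11.8), as was Nfkb1, at 21.3%, 27.6% (16.7 to 40.9) and 11.6% (9.04 to 14.7). Klf2 was detected in 8.51% (2.37 to 20.4), 24.1% (13.9 to 37.2) and 27.2% (23.5 to 31.2). Foxp3 did not follow the division, at 27.7%, 34.5% and 28.1%. Zfp36 had a log2 ratio of 1.67 in the 47 cells and 1.06 in the 58, but was near the zero cells in those with at least 5 rule UMIs. Rgs1 went the other way, at 0.19 and 2.19. It had 76 UMIs in 16 rule cells, of which 1 cell held 25, and 51 of the 76 lay in the 27 cells with Myc alone.

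**Figure D3:**
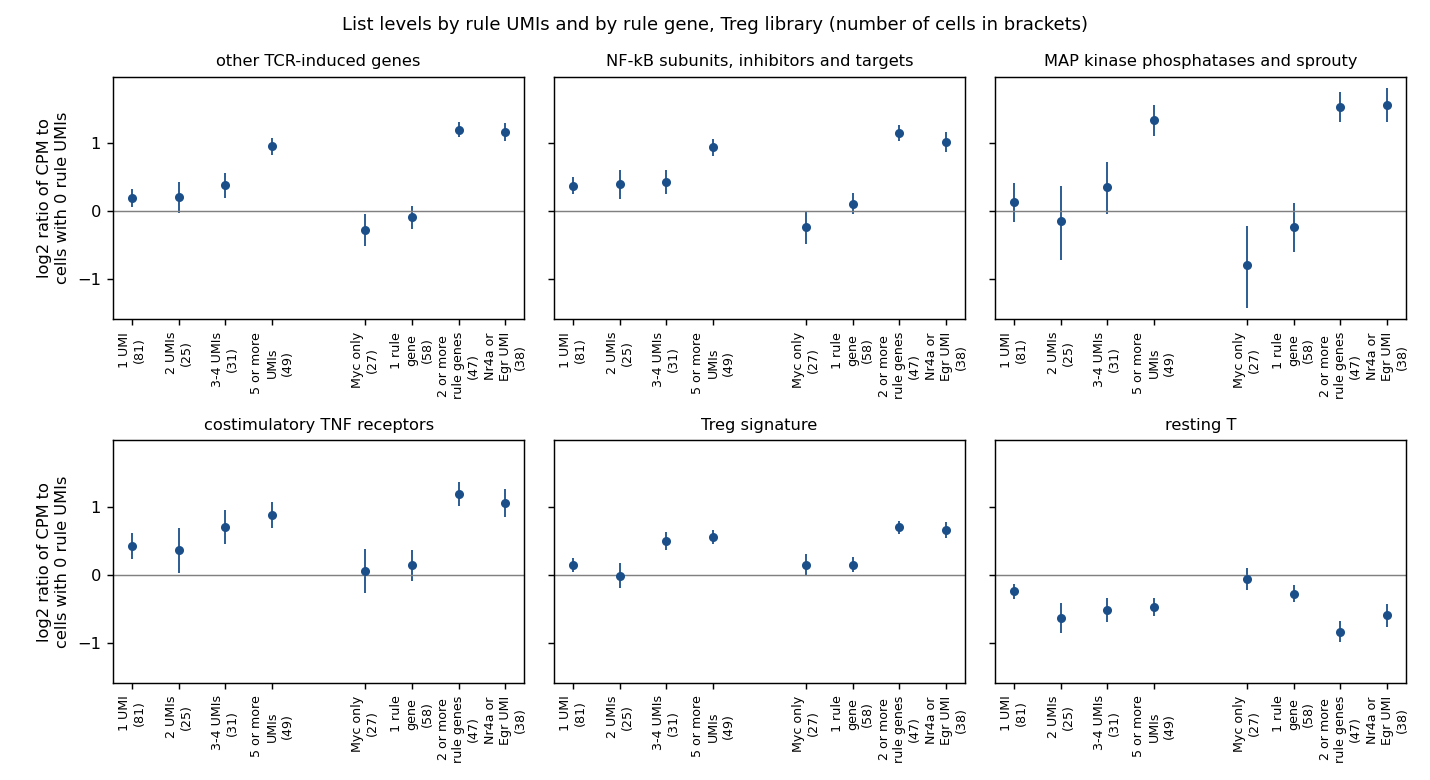
Log2 ratio of the summed CPM of 6 gene lists to the zero cells, in Treg cells classed by number of rule UMIs (left of each panel) and by rule gene (right), with the number of cells in brackets and exact 95% counting intervals. The TCR-induced list lies at -0.09 in cells with 1 rule gene and at 1.20 in cells with 2 or more.

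**Figure D4:**
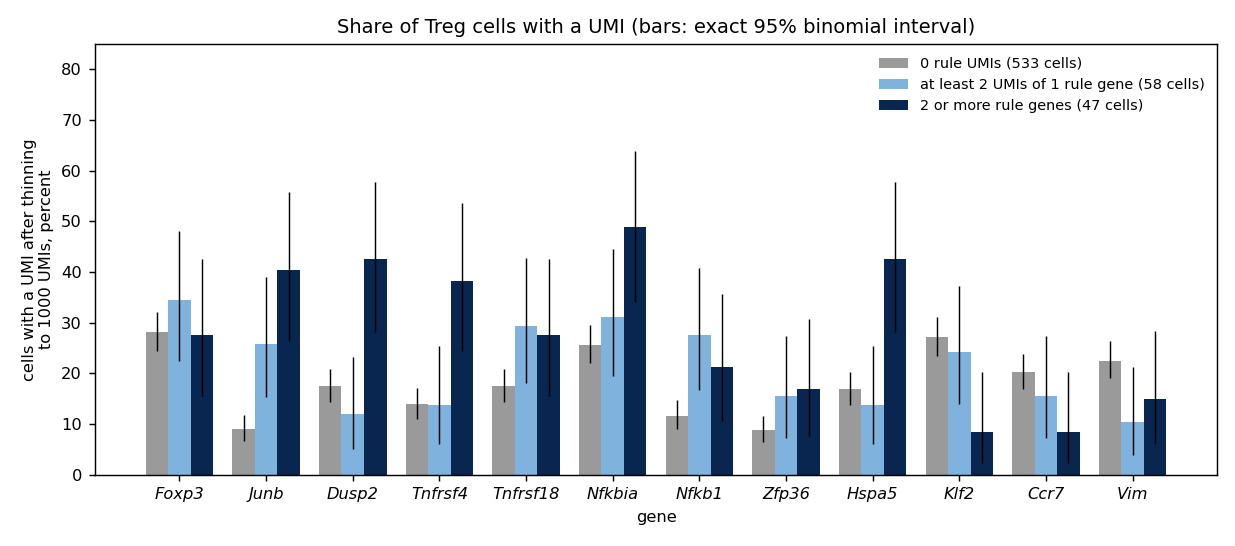
Percent of Treg cells with a UMI of each gene after thinning to 1000 UMIs, in cells with 0 rule UMIs, with UMIs of 1 rule gene and with 2 or more rule genes; bars on the columns are exact 95% binomial intervals. Dusp2 stands at 17.4%, 12.1% and 42.6%, while Foxp3 stands at 28.1%, 34.5% and 27.7%.

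The lists also differed by rule gene, in classes that share cells. The 38 rule cells with an Nr4a or Egr UMI had the immediate early list at 0.76 (0.61 to 0.90) and the TCR-induced list at 1.17 (1.04 to 1.31). The 37 with Irf4, Cd83 or Nfkbid had the NF-kB list at 1.31 (1.18 to 1.43), and the 40 with Cd69 had it at 0.80 (0.65 to 0.94). The 40 cells with Cd69 had the effector or memory list at 0.39 (0.26 to 0.52), whereas the 38 with Myc had it at -0.71 (-0.90 to -0.53). The 27 cells with Myc alone had the TCR-induced list at -0.27 (-0.51 to -0.03), the NF-kB list at -0.23 and the resting T list at -0.06 (-0.22 to 0.10). Their growth and ribosome biogenesis list was at -0.06 (-0.21 to 0.08).

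In the Tconv library the same rule took 103 of 1096 cells, 9.40% (7.74 to 11.3), against 14.6% (12.1 to 17.4) in Treg. After thinning the shares were 6.02% and 9.87%, and for at least 2 different rule genes 2.83% (1.93 to 3.99) and 6.54% (4.84 to 8.60). Median depth past the filters was 1596 UMIs in Tconv and 1760 in Treg, and median mapped reads per UMI were 18.8 and 31.4. Among genes with at most 0.2 UMIs per cell on average, 19.0% of detections in Tconv and 27.5% in Treg held at least 2 UMIs. The part of these library differences in the shares was not tested, and with 1 library each the difference in shares was not tested. The makeup differed: Myc gave 212 of the Tconv rule UMIs and was alone in 49 of the 103 cells, while Cd83 gave 3 UMIs and Irf4 7. In Tconv 4.51% of 5942 genes were at least 2-fold higher in rule cells and 9.95% lower, and 4 of 13 measured TCR-induced genes were higher and 2 lower. That list was at 0.73 (0.55 to 0.90) in Tconv and 0.67 (0.57 to 0.77) in Treg, and Dusp2 at 1.39 and 1.27. The NF-kB list was at 0.40 (0.24 to 0.56) in Tconv and 0.70 in Treg, and the resting T list at -0.03 (-0.11 to 0.05) and -0.52. Junb was at 0.16 in Tconv and 1.68 in Treg. The 31 Tconv cells with at least 2 rule genes had the TCR-induced list at 1.70 (1.47 to 1.91) and the 72 with a single gene at -0.08 (-0.36 to 0.18). Junb was at 289 CPM in those 31 cells, on 17 UMIs, 76.8 in the 72 and 128 in Tconv zero cells. Without Cflar, its member with most UMIs, the NF-kB list was at 0.94 (0.65 to 1.22) in the 31 cells. The resting T list without Igfbp4 was at -0.28 (-0.44 to -0.12) there. In the 47 Treg cells these lists, without Nfkbia and Dgka, were at 1.11 and -0.90. A different gene was left out in each library, so these values are not like for like. Cflar gave 25 of the 138 NF-kB list UMIs in the 31 Tconv cells and 722 of 2157 in Tconv zero cells. Nfkbia gave 118 of 738 in the 47 Treg cells and 384 of 2880 in Treg zero cells.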

How the data were processed

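Cells were sorted from spleen, encapsulated with inDrops, primed with oligo dT and sequenced on a NextSeq500, per the labels' protocols. The authors deposited raw UMI counts per gene and cell for 23725 genes and 2116 cells; the values are whole numbers. TopHat2, SAMtools and mm10 appear in the submitters' processing notes. How UMIs were counted, on which annotation and after which cell filter is not stated in those sources. Groups were read from the cell titles; the labels name no animals. UMIs of oligo-dT-primed mRNA count molecules and were not scaled for gene length.

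The members and gene lists were chosen with earlier results of these data known. UMIs were pooled over rule cells and zero cells and divided by all UMIs of the set (CPM). Ratios have an exact conditional interval and shares a Clopper-Pearson interval, both 95%, for counting error only; a count of 0 was set to 3 for a ratio, over the pooled set. Cells were thinned to 1000 UMIs without replacement, with 1 fixed seed. No p-value was computed, since each population is 1 library and cells are not replicates. Doublets were not called; cells above 2 times the median depth were left out in an alternative. The named genes were all rule genes, the 15 highest and 15 lowest genes by interval bound, and up to 4 members of each of 27 lists by abundance or bound; other members past 2-fold, and Cd3, Nfkb1, Tnfaip3, Tnfrsf9, Bcl2a1b, Rela, Tcf7, Ccr7 and Foxp3, were named after their values were seen. The ratio code was tested on simulated counts of independent UMIs, which does not test the intervals for UMIs that fall together in cells. The thinning code was tested on the rule cells. Python 3.11.15 with numpy 2.4.6, pandas 2.3.3 and scipy 1.17.1 was used. Gene positions are from GENCODE M21 (GRCm38, the assembly of mm10) and promoters from RefSeq. Some values of single genes are not reported here.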

Additional observations from a re-analysis of the deposited data

How the results depend on the processing

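Log2 ratios to zero cells are given unless stated. The split by number of different rule genes, the version without the 10 cells with at least 11 rule UMIs, the use of thinned cells with a UMI in place of UMIs, and the lists without their member with most UMIs in rule cells were chosen after seeing the data.

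The share of rule cells, 14.6% as reported, was 9.87% after thinning, 11.1% with at least 3 rule UMIs, 10.7% without Myc, 11.5% without Cd69 and 6.54% with at least 2 different rule genes (4.31% thinned); with at least 1 rule UMI it was 25.9% (18.5% thinned). Genes at least 2-fold higher and lower numbered 760 (9.15%) and 1271 (15.3%) of 8309 with at least 10 UMIs per gene. With 100 UMIs they were 33 (1.67%) and 74 (3.74%) of 1978. After thinning they were 185 (5.40%) and 357 (10.4%) of 3426, with shares close to those reported. In cells with at least 2 different rule genes they were 491 (9.73%) and 838 (16.6%) of 5045.

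The TCR-induced list, 0.67 as reported, was at 0.77 with membership after thinning, 0.91 without Myc, 0.79 without Cd69, 0.78 without deep cells, 1.20 with at least 2 different rule genes, 0.51 without the 10 richest cells, 0.54 without its leading member and 0.45 over cells with a UMI. The NF-kB list, at 0.70, was at 0.59 with membership after thinning, 0.92 without Myc, 1.16 with at least 2 different rule genes, and 0.55 both without the 10 richest cells and over cells with a UMI. The immediate early list, at 0.31, was at 0.47 with at least 2 different rule genes and 0.56 without its leading member. The Treg signature, at 0.44, was at 0.53 with at least 3 rule UMIs, 0.54 without Myc and 0.70 with at least 2 different rule genes. The resting T list, at -0.52, was at -0.37 with zero cells standardised for depth, -0.38 with membership after thinning, -0.73 without Myc, -0.84 with at least 2 different rule genes and -0.39 over cells with a UMI.

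These values changed sign: the MAP kinase phosphatase list was at -0.12 without Dusp2, the proliferation list was at -0.11 with membership after thinning, oxidative phosphorylation at -0.017 without cells of other types, the erythroid or platelet list at -0.46 over cells with a UMI, Ccr9 at -0.12 after thinning and -0.54 without cells of other types, and Cd74 at -0.50 with membership after thinning. Leaving out Dusp2 removes 241 of the 301 UMIs of its list; the cause of the others was not tested. Of 413 alternative values for 26 lists, 337 stayed within the reported interval, as did 1523 of 1663 for 113 named genes. Depth limits genes under 30 UMIs, which enter only the counts with at least 10 UMIs per gene and the list sums, and no paired analysis was possible because each population is 1 library.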
